A study of Mus musculus with 9 samples.

Results

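Germ cells store much of their mRNA and release it for translation later, and 10 genes encoding RNA-binding proteins that act in that control were followed here in 9 testis samples of mice. They are Dazl, Boll, Cpeb1, Meioc, Ythdc2, Ybx1, Ybx2, Ybx3, Pabpc1 and Ddx25. They were chosen by symbol as the rows of the gene table that carry these names, which gave 10 of 22337 genes. RNA sequencing was done on whole testes of 3-week-old mice of 3 Piwil4 genotypes, with 3 samples labelled as replicates in each. Whether each sample came from a single mouse was not given in the sources used here. Each sample is called a testis below. The wild-type mice carry both normal alleles, the Piwil4 WT/R264W mice are heterozygous for a knock-in allele, and the Piwil4 R264W/R264W mice are homozygous for it. In that allele an arginine of PIWIL4, a PIWI protein that guides transposon silencing in fetal male germ cells, is replaced by tryptophan. The allele was made by CRISPR-Cas9 in C57BL/6 zygotes. The number of founder lines behind the mice was not given in the sources used here.

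Meiotic and haploid male germ cells transcribe many mRNAs well before the protein is needed, because the chromatin of the elongating spermatid falls silent. DAZ-family and CPEB proteins bind elements near the mRNA tail and set its length, poly(A)-binding proteins coat that tail and recruit initiation factors, and Y-box proteins package mRNA into particles that are held back from ribosomes. The MEIOC-YTHDC2 complex removes mitotic transcripts as cells enter meiosis, and the helicase DDX25 moves messages out of the nucleus and into storage granules of the round spermatid.

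At 3 weeks the first wave of spermatogenesis has just begun to yield round spermatids, and how far the wave has come can differ from sample to sample. This was summarised for each testis by a round spermatid score, the mean over 14 round spermatid genes (among them Acrv1, Spaca1 and Izumo1, which encode proteins of the acrosome) of log2 CPM (counts scaled to library size, with TMM factors). From the lowest score to the highest the testes were Piwil4 WT/R264W replicate 3 (2.09), wild-type replicate 3 (2.65), wild-type replicate 2 (3.56), Piwil4 R264W/R264W replicate 1 (3.57), Piwil4 R264W/R264W replicate 2 (4.4), Piwil4 WT/R264W replicate 2 (4.56), Piwil4 WT/R264W replicate 1 (5.18), Piwil4 R264W/R264W replicate 3 (5.85) and wild-type replicate 1 (5.98). Values in the 9 testes are given below in this order. The score ran across all 3 genotypes without a gap between them. Libraries held 18 to 24.3 M estimated counts. Summed marker levels were 1397 to 2164 CPM for Sertoli cells and 180 to 447 CPM for Leydig cells, and of 7 epididymal genes Crisp1 reached 39.5 CPM in Piwil4 R264W/R264W replicate 1 and at most 5.34 CPM elsewhere, while none of the others exceeded 0.168 CPM in any testis and Lcn8 and Spink12 were at 0 throughout. Piwil4 itself had 18 to 46 counts per library. In whole tissue, fewer cells of a type and less RNA per cell cannot be told apart.

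The Y box, after which the Y-box family was named, is an inverted CCAAT element. Sequence upstream of 4 members is shown for matches to CCAAT in either orientation. These are the 3 genes with more than 1 match, Ybx1, Ybx2 and Meioc, and Dazl, which had the steepest slope below. RefSeq promoter windows, 250 bases before to 50 after the start of transcription on GRCm38.p6, were matched for 8 of the 10 genes, with 2 windows each for Boll and Ybx2. Pabpc1 and Ythdc2 were not matched. Both strands were searched for CCAAT, for the cyclic AMP response element TGACGTCA, for a MYB core written GGCNGTT and for a STRA8 motif written CNCCTCAG. These motifs do not overlap one another in the windows below. The 250 bases upstream are printed 5′ to 3′ on the strand of the gene, with motif matches in capitals.

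Ybx1 (chr4:119294514-119294763, minus strand): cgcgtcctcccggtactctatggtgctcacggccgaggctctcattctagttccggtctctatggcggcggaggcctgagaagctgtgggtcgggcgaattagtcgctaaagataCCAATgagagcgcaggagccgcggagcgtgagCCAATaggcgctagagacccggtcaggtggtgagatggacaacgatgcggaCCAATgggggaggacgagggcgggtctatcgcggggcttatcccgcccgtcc
Ybx2 (chr11:69935649-69935898, plus strand): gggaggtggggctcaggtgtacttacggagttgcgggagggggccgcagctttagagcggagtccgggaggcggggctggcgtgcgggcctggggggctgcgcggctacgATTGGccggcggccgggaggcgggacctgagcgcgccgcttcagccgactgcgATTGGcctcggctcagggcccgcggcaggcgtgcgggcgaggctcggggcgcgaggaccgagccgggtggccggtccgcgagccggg
Meioc (chr11:102665335-102665584, plus strand): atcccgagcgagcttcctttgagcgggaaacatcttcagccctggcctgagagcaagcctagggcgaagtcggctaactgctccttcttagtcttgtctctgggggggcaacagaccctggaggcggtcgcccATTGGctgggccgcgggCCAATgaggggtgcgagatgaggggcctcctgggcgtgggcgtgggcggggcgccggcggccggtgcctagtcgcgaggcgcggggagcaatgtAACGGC
Dazl (chr17:50293621-50293870, minus strand): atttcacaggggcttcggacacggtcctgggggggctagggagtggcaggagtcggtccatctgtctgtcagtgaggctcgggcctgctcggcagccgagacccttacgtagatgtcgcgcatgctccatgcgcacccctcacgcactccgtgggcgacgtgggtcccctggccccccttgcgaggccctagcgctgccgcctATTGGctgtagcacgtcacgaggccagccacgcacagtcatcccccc

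CCAAT, or ATTGG where it lies on the other strand, was present 3 times in Ybx1, at 135, 103 and 52 bases before the start, 2 times in the first Ybx2 window, at 140 and 87 bases, 2 times in Meioc, at 117 and 100 bases, and once in Dazl, at 47 bases. It was also present once in the second Boll window, at 53 bases, and once in Ddx25, at 9 bases before the start. The Ybx3 and Cpeb1 windows held no match to any of the 4 motifs. Over 32851 RefSeq promoter windows of the same length, 37.4% held CCAAT, against 6 of the 10 windows here. Among the 8 genes with a window, Meioc alone held the MYB core, its match starting 6 bases before the start and ending past it, which 12.1% of windows hold. The Meioc window lies inside the gene as placed by the GRCm38 annotation, which begins at position 102663716. The STRA8 motif was found in Dazl, 16 bases after the start, and in the second Ybx2 window, at 180 bases before it, and 7.94% of windows hold it. No member window held TGACGTCA, which 1.79% of windows hold. The genes with CCAAT in either orientation included members that rose and members that fell with the score below.

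Levels between genes are compared per transcript length, as FPKM (the fragment count scaled to transcript length and library size), and they set the 10 genes into well separated tiers. Pabpc1, the main cytoplasmic poly(A)-binding protein, had the highest level at 1218 ± 63.7 FPKM (SD, n = 9) and ranked 13 among the 22337 genes by mean FPKM. The Y-box genes followed at 983.8 ± 67.9 FPKM for Ybx1, 950.0 ± 97.3 for Ybx2 and 944.8 ± 109 for Ybx3, at ranks 17, 19 and 22. These 3 neighbours differed from one another by less than their SD. Together with Pabpc1 they made up 0.827 to 1.02% of all FPKM in a testis. Boll at 177.0 ± 11.2 FPKM lay above Dazl at 138.8 ± 29.3, and the ranges of this pair overlapped, from 161 to 188 for Boll and from 95.7 to 185 for Dazl. Meioc at 82.2 ± 9.98 FPKM and Ddx25 at 71.3 ± 4.25 came next, also with overlapping ranges. The lowest levels were those of Ythdc2, at 14.2 ± 2.34 FPKM, and Cpeb1, at 6.85 ± 1.19 FPKM and rank 8387.

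**Figure D1:**
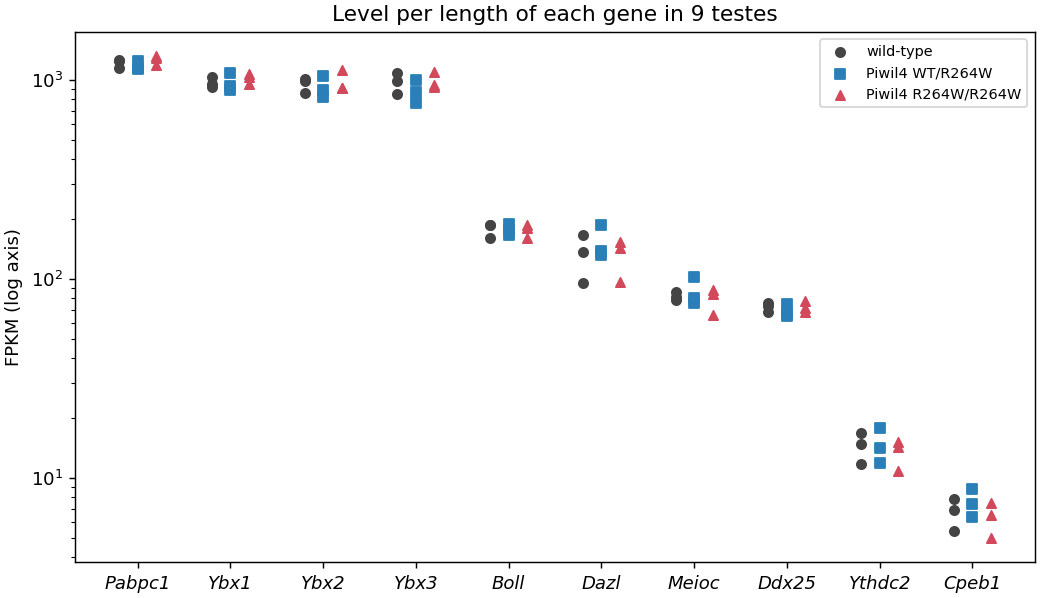
Level per length (FPKM, log axis) of the 10 genes in 9 testes, one point per testis, with symbols for genotype. Pabpc1 and the 3 Y-box genes lie between 762 and 1312 FPKM, Boll to Ddx25 between 65.3 and 188, and Ythdc2 and Cpeb1 between 5 and 17.7.

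The first comparison was with the progress of the first wave. In a model with genotype and the round spermatid score over all 9 testes, 4 members rose with the score (Ybx2, Ybx3, Pabpc1 and Ddx25) and 3 fell (Dazl, Cpeb1 and Ythdc2) with edgeR (quasi-likelihood test, adjusted p below 0.05). Of all 15771 genes tested, 29.1% were called, 18.6% as rising and 10.5% as falling. Boll, Meioc and Ybx1 missed the threshold with adjusted p = 0.0804, 0.0557 and 0.0666. All 10 genes passed the filter on low counts in every comparison. Changes were modest, between 0.612 and 1.43 times over the whole span of scores, in genes whose highest and lowest testes differed by 1.17 times (Boll) to 1.75 times (Dazl) in CPM.

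Dazl, an RNA-binding protein needed from the entry of germ cells into meiosis and an activator of translation, fell most steeply. Its levels from the lowest score to the highest were 527, 488, 405, 444, 421, 397, 407, 301 and 304 CPM. The highest value was in the testis with the lowest score, and the lowest pair were the testes with the highest scores, one wild-type and one Piwil4 R264W/R264W. The slope was -0.18 log2 units of CPM per unit of score (SE 0.0251, adjusted p = 8.78e-05, edgeR), which is 0.612 times over the span of 3.89 score units. Within each genotype the testis of highest score was below that of lowest score, by log2 differences of -0.68 in wild-type, -0.37 in Piwil4 WT/R264W and -0.56 in Piwil4 R264W/R264W mice. Among the other members this difference had the sign of the slope in each genotype, except for Ybx1. Ybx1 had a slope of 0.07 but a difference of -0.006 in Piwil4 WT/R264W mice. The difference was small for Pabpc1 in those mice (0.059) and for Meioc in wild-type mice (-0.051).

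Boll, the ancestral DAZ-family member, was nearly level, with 247, 245, 241, 238, 248, 228, 211, 215 and 226 CPM in the same order. The 5 testes of lower score all lay above the 4 of higher score, yet the slope of -0.05 (SE 0.0213) did not pass the adjusted threshold. The ratio of Dazl to Boll, taken on FPKM, moved between 0.593 in wild-type replicate 1 and 0.988 in Piwil4 WT/R264W replicate 3, the testes of highest and lowest score.

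Cpeb1, which binds the cytoplasmic polyadenylation element and is needed for the synaptonemal complex stage of meiosis, had 25, 22.8, 19.2, 21.9, 19.7, 19.5, 22.4, 15.9 and 17.2 CPM. The testes of highest score were again the lowest, and the slope was -0.11 (SE 0.0356, adjusted p = 0.0301, edgeR). At this level the gene rests on few counts compared with the other members.

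Ythdc2, the RNA helicase and m6A reader of the complex that ends the mitotic programme, had 119, 116, 104, 102, 96.8, 85.5, 104, 78.8 and 87.4 CPM, with a slope of -0.12 (SE 0.0289, adjusted p = 0.00809, edgeR). Its partner Meioc had 435, 378, 346, 374, 388, 342, 331, 308 and 365 CPM and a slope of -0.08 (SE 0.0279). Wild-type replicate 1, the testis of highest score, had the median Meioc level of the 9, and without this testis Meioc was called, at a slope of -0.13 (adjusted p = 0.00604, edgeR). It was also called without wild-type replicate 2 (adjusted p = 0.0415), while without Piwil4 WT/R264W replicate 3 the slope shrank to -0.05 (adjusted p = 0.333). The FPKM ratio of Meioc to Ythdc2 stayed between 5.12 and 6.69. The summed level of 9 early meiotic genes, of which 5 fell and 1 rose with the score, ran from 1755 to 2602 CPM and was lowest in Piwil4 R264W/R264W replicate 3. Of 9 Sertoli genes 3 fell and 1 rose, with a median slope of -0.11, and their summed level in order of score was 1995, 1887, 1892, 1831, 1654, 1759, 2164, 1571 and 1397 CPM. Clu made up most of this sum, at 936.8 to 1469 CPM. The part of such cell mixtures in the slopes of Dazl, Cpeb1 and Ythdc2 was not tested.

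Among the Y-box proteins, Ybx2 (MSY2) and Ybx3 (MSY4) are the forms enriched in germ cells, while Ybx1 is expressed in most tissues. Ybx3 had 1366, 1548, 1822, 1696, 1747, 1876, 1610, 2141 and 2182 CPM. The 2 testes of lowest score were the lowest and the 2 of highest score the highest, and the slope was 0.13 (SE 0.0263, adjusted p = 0.00202, edgeR), or 1.43 times over the span. Ybx2 had 1344, 1429, 1656, 1530, 1545, 1790, 1515, 2012 and 1857 CPM, with a slope of 0.12 (SE 0.0287, adjusted p = 0.00861, edgeR). Ybx1 had 1428, 1477, 1449, 1493, 1631, 1733, 1422, 1779 and 1749 CPM, with a slope of 0.07 (SE 0.0269). Per length, Ybx2 stood at 0.878 to 1.07 times Ybx1 and Ybx3 at 0.816 to 1.07 times Ybx1, so that none of the 3 was the dominant form in all testes. One pseudogene named after Ybx1 is annotated, and how reads shared with it were assigned was not given in the sources used here.

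Pabpc1 had 3104, 3204, 3488, 3336, 3617, 3531, 3233, 3905 and 3843 CPM, and its slope of 0.07 (SE 0.022, adjusted p = 0.0396, edgeR) was the shallowest of those called. Pabpc2, a copy of Pabpc1 that is transcribed in male germ cells, had 0.223 to 0.301 times the FPKM of Pabpc1. Reads common to both genes could have been counted with either, so the split between them is uncertain. Ddx25 had 445, 471, 511, 479, 504, 533, 478, 581 and 576 CPM, with a slope of 0.08 (SE 0.023, adjusted p = 0.017, edgeR). Ddx25 is also made in Leydig cells, and of 8 Leydig genes 2 rose with the score (Cyp11a1 and Cyp17a1) and none fell. The summed level of all 8 was 181, 180, 208, 283, 447, 278, 292, 444 and 424 CPM in order of score, with its highest value at a middle score in Piwil4 R264W/R264W replicate 2. Their part in the Ddx25 slope was not tested.

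**Figure D2:**
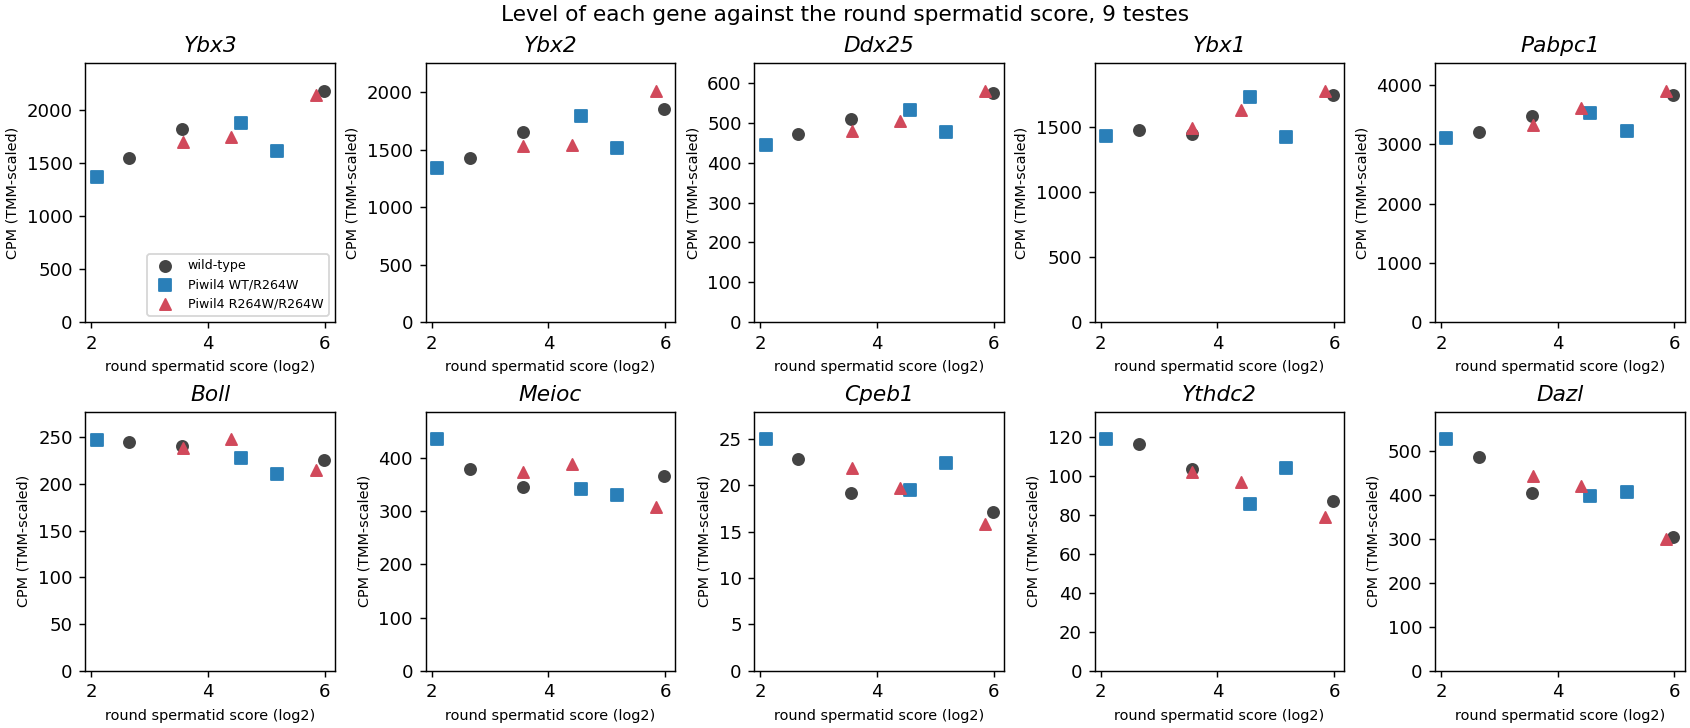
Level of each gene (CPM, axes from 0) against the round spermatid score in 9 testes, one point per testis, with colour and symbol for genotype. Dazl falls from 527 to 304 CPM and Ybx3 rises from 1366 to 2182 CPM between the testes of lowest and highest score, and the genotypes are interleaved in every panel.

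Piwil4 WT/R264W replicate 1 stood off from the trend. It had the third-highest score, 5.18, but its levels of Ybx1, Ybx2, Ybx3, Pabpc1 and Ddx25 (1422, 1515, 1610, 3233 and 478 CPM) were at or near those of the testes of lower score, and its Ythdc2 and Cpeb1 levels lay above those of Piwil4 WT/R264W replicate 2. It also had the highest summed levels of 9 Sertoli genes, 2164 CPM against 1397 to 1995 CPM in the other testes, and of 5 peritubular myoid genes, 252.7 against 117.6 to 241.9 CPM. Clu alone was at 1469 CPM of this Sertoli sum. Clu, Sox9, Amh and Gata4 were highest in this testis, while Wt1, Rhox5, Dhh, Aard and Fshr were highest in others. The part of these cell types in the member levels was not tested. Without this testis 8 members and 39.8% of all genes were called, Ybx1 now among those that rose (slope 0.10, adjusted p = 0.000781, edgeR), and the slope of Dazl was -0.20. Dazl, Ybx3 and Ythdc2 were called whichever single testis was left out. Ybx2 lost its call without Piwil4 WT/R264W replicate 3 (adjusted p = 0.0522). Cpeb1 lost it without that testis (0.0636), wild-type replicates 1 (0.0987) and 3 (0.112) and Piwil4 R264W/R264W replicates 1 (0.0748) and 3 (0.105). Ddx25 lost it without the same 5 testes, with adjusted p = 0.0688, 0.0861, 0.0827, 0.060 and 0.0731. Pabpc1 kept its call only without Piwil4 WT/R264W replicate 1 or wild-type replicate 2, and otherwise had adjusted p between 0.0532 (without Piwil4 WT/R264W replicate 2) and 0.162 (without wild-type replicate 3), with 0.159 without wild-type replicate 1, 0.104 without Piwil4 WT/R264W replicate 3, and 0.135, 0.0717 and 0.121 without Piwil4 R264W/R264W replicates 1, 2 and 3.

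The direction of all 10 slopes was kept in each of these fits and under every other setting tried, but their size depended on the scaling between libraries. TMM factors were lowest, at 0.938 and 0.954, in the 2 testes of highest score. With library totals in place of TMM, 6110 of 15771 genes were called. Of these calls 39.4% were of rising genes, against 63.9% with TMM. The members split into 2 that rose (Ybx2 and Ybx3) and 5 that fell (Dazl, Boll, Cpeb1, Meioc and Ythdc2). All falling slopes were then steeper, for example -0.22 for Dazl and -0.09 for Boll (adjusted p = 0.00668, edgeR). All rising slopes were shallower, and those of Pabpc1 and Ddx25 were 0.03 and 0.05, with adjusted p = 0.225 and 0.0887 (edgeR). These calls were also lost in limma, with adjusted p = 0.249 and 0.281 for Pabpc1 and 0.118 and 0.112 for Ddx25 at pseudocounts of 0.1 and 1, as was that of Ybx2 at a pseudocount of 1 (0.0549). Pabpc1 lost its call with a replicate block too (adjusted p = 0.0869, edgeR), and Cpeb1 lost its call in DESeq2 (adjusted p = 0.053).

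**Figure D3:**
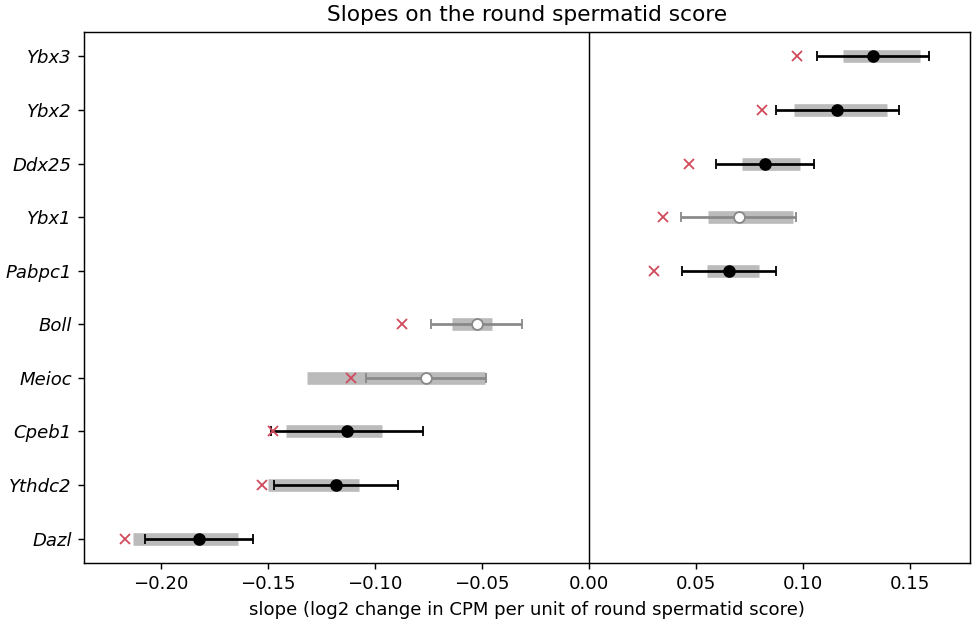
Slope of each gene on the round spermatid score (log2 change in CPM per unit of score). Points are the fit to 9 testes with bars of 1 SE (filled where the adjusted p was under 0.05), grey bands span the 9 fits that leave out a testis each, and crosses are the fit with library totals in place of TMM. Every slope keeps its side of 0, from -0.18 for Dazl to 0.13 for Ybx3.

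The second comparison was between Piwil4 genotypes. None of the 10 genes was called in any of the 3 comparisons, and none had an unadjusted p under 0.05 in edgeR. The percentage of all genes called was 0% in each, with 196 of 15543 genes (1.26%) at an unadjusted p under 0.05 in Piwil4 R264W/R264W against wild-type testes, 343 of 15463 (2.22%) against Piwil4 WT/R264W testes, and 171 of 15413 (1.11%) in Piwil4 WT/R264W against wild-type testes. DESeq2 called 2, 6 and 0 genes in these comparisons, none of them a member, and limma on log2 FPKM called none. No member had genotype groups that did not overlap, which 5.58%, 7.06% and 5.36% of all genes tested had.

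Dazl averaged 399.0 ± 91.8 CPM in wild-type, 443.5 ± 72.2 in Piwil4 WT/R264W and 388.5 ± 76.9 in Piwil4 R264W/R264W testes (SD, n = 3 each). Homozygous mutant against wild-type testes gave a log2 fold change of -0.04 (SE 0.211), with wild-type values of 304, 405 and 488 CPM spanning 2 of the 3 mutant testes (421 and 444 CPM) and the third just below them at 301 CPM. Boll, with the smallest spread, averaged 237.4 ± 9.99, 228.8 ± 17.8 and 233.7 ± 16.9 CPM, and its log2 fold change was -0.02 (SE 0.0768). For the Y-box genes and Pabpc1 the same comparison gave 0.07 (SE 0.123) for Ybx1, 0.04 (SE 0.161) for Ybx2, 0.01 (SE 0.167) for Ybx3 and 0.04 (SE 0.131) for Pabpc1. These differences were smaller than their standard errors.

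Of the members, Ythdc2 differed most between homozygous mutants and wild-type mice, at -0.15 (SE 0.14, unadjusted p = 0.328, edgeR), from 92.6 ± 12.2 against 102.5 ± 14.6 CPM. Its partner Meioc differed by -0.03 (SE 0.102), Cpeb1 by -0.04 (SE 0.168) and Ddx25 by 0.00 (SE 0.115). With Piwil4 WT/R264W testes as the reference, homozygous mutants had log2 fold changes from -0.22 (SE 0.158) for Cpeb1 and -0.19 (SE 0.175) for Dazl to 0.21 (SE 0.152) for Ybx3, with adjusted p between 0.948 and 0.951. Piwil4 WT/R264W against wild-type testes ran from -0.20 (SE 0.176) for Ybx3 to 0.17 (SE 0.161) for Cpeb1 and 0.15 (SE 0.195) for Dazl. The comparisons share libraries, so these values are not independent of one another.

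**Figure D4:**
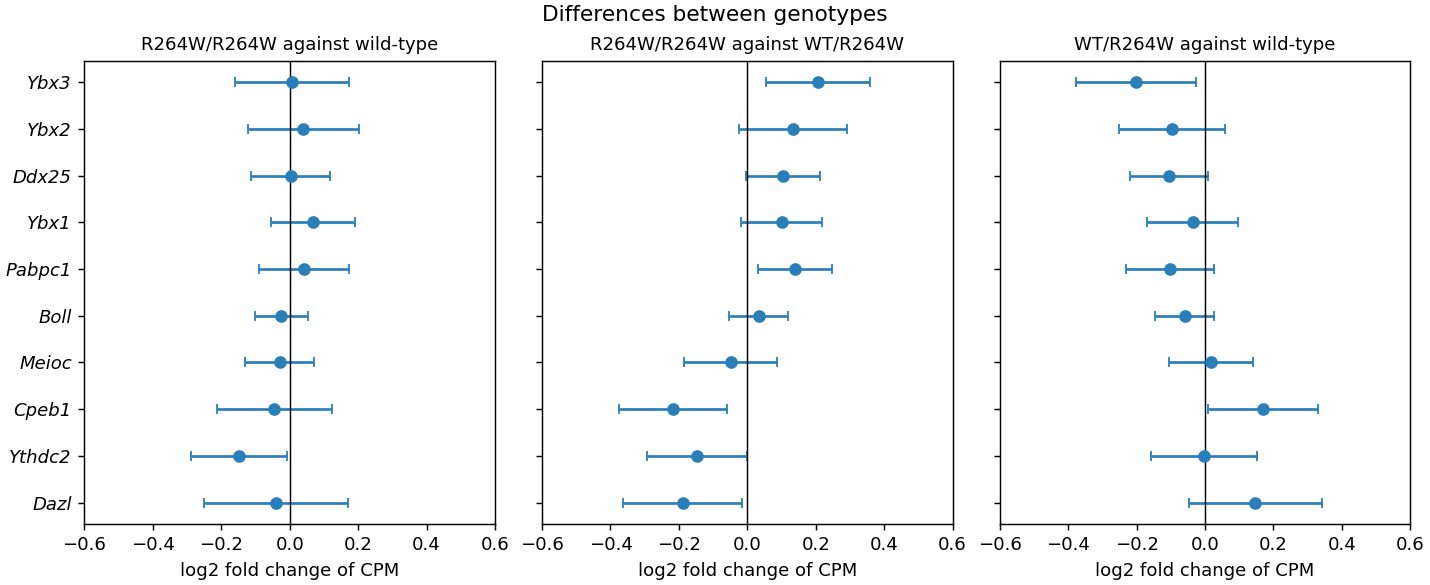
Log2 fold change of CPM for each gene in the 3 comparisons of genotypes, as points with bars of 1 SE. In Piwil4 R264W/R264W against wild-type testes all 10 lie between -0.15 and 0.07, and across the 3 panels all lie between -0.22 and 0.21.

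With the score as a covariate the standard errors became smaller, for example 0.0768 in place of 0.211 for Dazl in Piwil4 R264W/R264W against wild-type testes, whose log2 fold change became 0.07. In that fit 1 member had an unadjusted p under 0.05, Ybx3 in Piwil4 WT/R264W against wild-type testes, with -0.17 (SE 0.0798, unadjusted p = 0.0478, adjusted p = 0.935, edgeR), where 4.27% of all genes were at that level. None had in the other comparisons, where 2.75% (Piwil4 R264W/R264W against wild-type) and 3.34% (against Piwil4 WT/R264W) of all genes were. The slopes themselves were compared between genotypes by an interaction term. No member had an unadjusted p under 0.05 for it, the lowest being 0.081 for Meioc, while 2.47% of all genes did. The slope of each genotype rested on 3 testes, so this fit does not show that the slopes were alike. For Meioc they differed from wild-type by -0.128 in Piwil4 WT/R264W and -0.126 in Piwil4 R264W/R264W testes. The FPKM ratios Dazl to Boll, Dazl to Ybx2, Ybx2 to Ybx1, Ybx3 to Ybx1, Pabpc2 to Pabpc1 and Meioc to Ythdc2 gave exact two-sided permutation p of 0.3 or more in all comparisons, where 3 against 3 testes can give no p under 0.1. The Dazl to Boll ratio was 0.740 ± 0.148 in wild-type, 0.858 ± 0.12 in Piwil4 WT/R264W and 0.739 ± 0.128 in Piwil4 R264W/R264W testes (SD, n = 3 each).

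The relatives and partners of the 10 genes were then followed along the score, from lists that were assembled with earlier results of these data known. The poly(A)-binding list, the CPEB and DAZ list and the m6A list hold 1, 3 and 2 of the members. Those members are counted again in the numbers below. No gene of these lists was called between genotypes. The median slope of all genes tested was -0.02, and 18.6% of them rose and 10.5% fell.

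Of 12 poly(A)-binding proteins and partners, 9 were tested, 2 rose, 2 fell and the median slope was -0.03. The 2 that rose were Pabpc1 and Pabpc2, the latter from 646 CPM in the testis of lowest score to 1078 CPM in that of highest score (slope 0.16, SE 0.026, adjusted p = 0.000401, edgeR). Those that fell were Pabpc4, a form found in many tissues, from 30.2 to 16.2 CPM (slope -0.16, SE 0.0386), and Paip1, which joins poly(A)-binding protein to the initiation machinery, from 143 to 116 CPM (slope -0.08). Pabpc4l, at 0.313 to 1.01 CPM, had a slope of -0.15 with an SE of 0.18.

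Among 15 CPEB and DAZ relatives and polyadenylation factors, all tested, 3 rose and 3 fell, with a median slope of -0.01. Dazl, Cpeb1 and Tent2 fell, while Cpeb2, Cpeb3 and Papolb rose. Cpeb2 went from 199 to 371 CPM between the testes of lowest and highest score (slope 0.23, SE 0.0248, adjusted p = 9.76e-06, edgeR), in the opposite direction to its relative Cpeb1. Cpeb3 was at 7.04 to 12.2 CPM in the 7 testes of lower score and at 15.0 and 14.9 CPM in the other two (slope 0.26, SE 0.0697, adjusted p = 0.0141, edgeR). Papolb, the testis-specific cytoplasmic poly(A) polymerase, went from 443 to 813 CPM (slope 0.19, SE 0.0249), and Tent2 (GLD2), the poly(A) polymerase that works with CPEB proteins, from 26.3 to 22.4 CPM with its lowest value, 18.2, in Piwil4 R264W/R264W replicate 3 (slope -0.13, SE 0.0432). Cpeb4 had a slope of 0.03 (SE 0.0286) and was not called. Calls were lost without wild-type replicate 1 (Cpeb3 and Pabpc4), wild-type replicate 3 (Tent2 and Paip1), Piwil4 WT/R264W replicate 3 or Piwil4 R264W/R264W replicate 1 (Tent2 and Paip1), Piwil4 R264W/R264W replicate 2 (Tent2) and Piwil4 R264W/R264W replicate 3 (Cpeb3, Tent2 and Paip1), with adjusted p no higher than 0.194. Cpeb3 was also not called on a score from 12 pachytene spermatocyte genes (adjusted p = 0.217, edgeR), nor Tent2 with DESeq2 size factors (0.0524) or in DESeq2 (0.0503).

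The m6A list, 13 writers, erasers, readers and partners of MEIOC-YTHDC2 and all tested, held 3 genes that fell, Wtap, Ythdc2 and Ythdf1, and none that rose, with a median slope of -0.07. Wtap, a regulatory subunit of the m6A methyltransferase, went from 68.6 to 45.0 CPM (slope -0.12, SE 0.0288, adjusted p = 0.00643, edgeR). The catalytic subunit Mettl3 had a slope of -0.01 (SE 0.0364), and the demethylase Fto had the largest slope of the list, 0.07 (SE 0.0255), without passing the test. Ythdf1, a cytoplasmic reader, had a slope of -0.09 (SE 0.028), and lost its call without wild-type replicate 1, Piwil4 WT/R264W replicate 3 or Piwil4 R264W/R264W replicate 3, with adjusted p up to 0.115.

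Other mRNA-binding proteins and initiation factors of germ cells numbered 28, with 26 tested, 3 rising, 9 falling and a median slope of -0.04. Adad1, a double-stranded RNA-binding protein of spermatids, went from 221 to 359 CPM (slope 0.15, SE 0.0253), and Eif4g3, the scaffold factor needed for male meiotic exit, from 478 to 725 CPM (slope 0.13, SE 0.023). Fxr1, an RNA-binding protein that activates stored mRNAs in spermatids, was the other to rise (slope 0.09, SE 0.0216), and was not called without wild-type replicate 1 or 3 (adjusted p up to 0.137) or with a replicate block (0.0514). Lin28a, a marker of undifferentiated spermatogonia, went from 19.2 to 8.40 CPM (slope -0.22, SE 0.0513, not called without wild-type replicate 1, adjusted p = 0.0674), and Fmr1 from 109 to 69.3 CPM (slope -0.17, SE 0.0367). Of 9 spermatogonial genes, Lin28a among them, 8 were tested, 3 fell and 1 rose (Dmrtb1, slope 0.13, SE 0.0279), with a median slope of -0.09. The summed level of all 9 was highest in Piwil4 R264W/R264W replicate 3 and wild-type replicate 1, at 839.5 and 808.1 CPM. Dmrtb1 alone was at 693 and 664.9 CPM there.

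Of 15 mRNAs known to be bound or regulated by the members, 10 rose, 3 fell and the median slope was 0.30. Among them Prm1, Prm2, Tnp1, Tnp2, Odf1, Gapdhs and Akap4, with slopes from 1.02 to 2.97, are transcripts of spermatids. The 14 genes of the score, also of spermatids, had a median slope of 1.02. The rise of such mRNAs with the score followed from the choice of the list and says nothing about the members. The largest slopes were those of the protamines Prm1 and Prm2, which package sperm DNA and whose stored mRNAs are bound by Y-box proteins. Prm1 was at 0.105, 0.193, 0.294, 0.268, 1.84, 0.335, 15.4, 34.8 and 41.7 CPM, and Prm2 at 0, 0.0965, 0.783, 0.626, 2.37, 1.79, 21.5, 47.1 and 59.4 CPM. Both were at 2.37 CPM or less in the 6 testes of lower score, and their fitted slopes, 2.97 (SE 0.217) and 2.89 (SE 0.14), rest on few counts there. In Piwil4 WT/R264W replicate 1 the protamines were at 15.4 and 21.5 CPM, while its Y-box genes lay near the levels of lower-score testes. The 3 that fell were Sycp1, Sycp3 and Ccna2. Sycp1 and Sycp3, which encode parts of the synaptonemal complex and whose mRNAs are bound by CPEB1, had slopes of -0.15 (SE 0.0392) and -0.13 (SE 0.0321). Ccna2, the mitotic cyclin whose mRNA the MEIOC-YTHDC2 complex targets, went from 31.8 to 19.4 CPM (slope -0.14, SE 0.0362). Ccna2 lost its call without wild-type replicate 1 or 3 (adjusted p up to 0.14), and Sycp1 without wild-type replicate 3 (adjusted p = 0.055). On the pachytene score Sycp1, Sycp3 and Prm1 were not called, with adjusted p = 0.124, 0.0951 and 0.058 (edgeR).

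**Figure D5:**
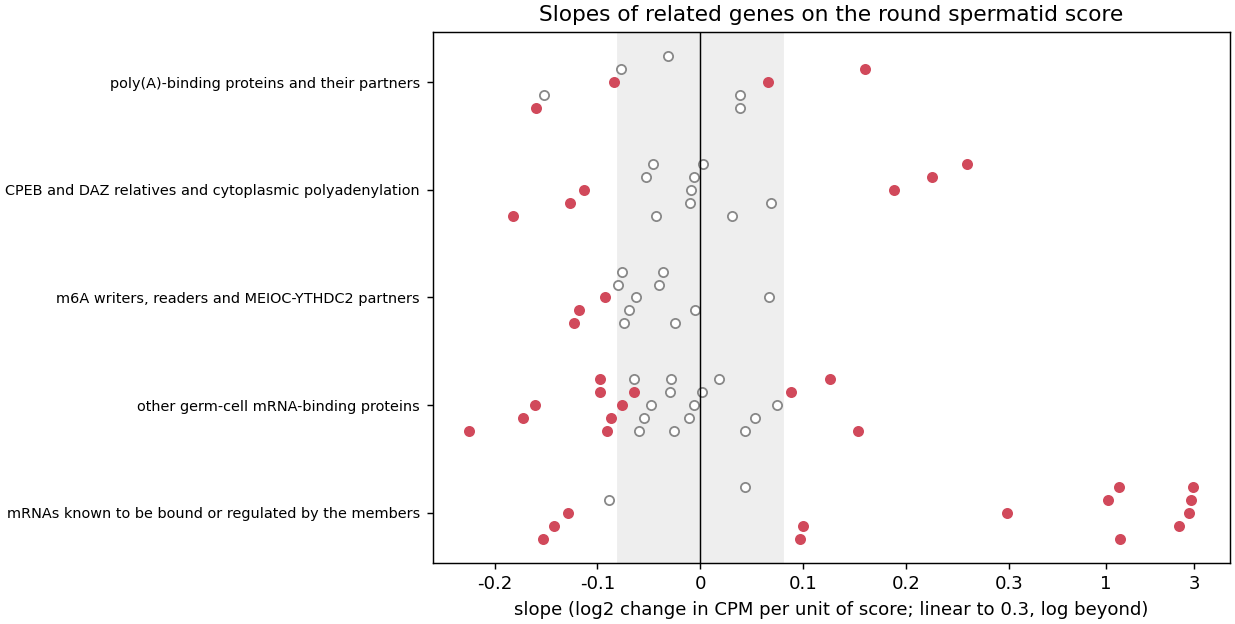
Slope on the round spermatid score (log2 change in CPM per unit of score, axis linear to 0.3 and logarithmic beyond) for the tested genes of 5 lists, one point per gene, filled where the adjusted p was under 0.05. The grey band spans the middle 50% of all genes tested. In the lowest row 10 of 15 bound or regulated mRNAs lie to the right as called, in a list that holds spermatid mRNAs as the score does. In the m6A row the 3 called genes, the member Ythdc2 among them, all lie to the left.

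Over the 9 testes each gene was also set beside the 9927 genes with a mean of at least 10 CPM, by Pearson's r of log2 CPM. These values describe the shared order of the same 9 libraries. The most alike were Hfe and Gnai3 for Dazl (0.986 each), Mpi and Klhdc3 for Ybx2 (0.994 and 0.993), Dhx58 and Zcchc2 for Ybx3 (0.992 and 0.991), Daxx and Cpt1b for Ddx25 (0.995 and 0.994), Scmh1 and Tbrg1 for Pabpc1 (0.986 and 0.985), Kcmf1 and Ift43 for Ybx1 (0.983 and 0.976), Esf1 and Tshz1 for Cpeb1 (0.989 and 0.988) and Klf13 and Fmr1 for Ythdc2 (0.991 and 0.989). Ddx25, Ybx2 and Ybx3 had 342, 337 and 329 genes with r above 0.95, while Meioc had 6 and Boll 3, the most alike being Ciao2a and Mosmo for Meioc (0.966 and 0.962) and Cry1 and Ccdc117 for Boll (0.967 and 0.956). Among the members, Ybx3 and Ddx25 had r = 0.982, and Cpeb1 and Pabpc1 r = -0.981.

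By gene identifier, the annotation of GRCm38 places Dazl on chr17:50279395-50293636, Boll on chr1:55248658-55363469, Cpeb1 on chr7:81347026-81455465, Meioc on chr11:102663716-102682237, Ybx1 on chr4:119277981-119294604, Ybx2 on chr11:69935796-69941605, Ybx3 on chr6:131364855-131388476, Pabpc1 on chr15:36595661-36609668, Ddx25 on chr9:35536647-35558528 and Ythdc2 on chr18:44827746-44889724. Meioc, Ybx2 and Ythdc2 lie on the plus strand and the others on the minus strand. The submitters' processing notes name mm39, so these positions locate the genes on another build than the one the counts were made on. Gm8292 overlaps Boll and Rpl7a-ps9 overlaps Cpeb1 on the other strand, and Gm22362 lies within Ybx3 on its strand. Whether counting used strand was not given in the sources used here, and reads of such overlapping genes could not be told apart without it.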

How the data were processed

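Total RNA of whole testes was extracted with TRIzol and sequenced as poly(A) libraries (VAHTS mRNA-seq v2). The submitters' processing notes name fastp (version 0.18.0), StringTie (version 1.3.1), DESeq2 and the build mm39. The aligner, annotation release and counting tool are not given in the sources used here. The authors deposited 1 table with an estimated count, not scaled for depth, and an FPKM value for each gene in each testis. Of 22337 genes, 2706 were at 0 throughout, and 89.2% of the deposited estimated counts were whole.

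Estimated counts were rounded. In R (version 4.3.3), edgeR (version 4.0.16) with filterByExpr, TMM and the two-sided quasi-likelihood test with Benjamini-Hochberg adjustment over all genes was fitted to 6 libraries per pair of genotypes, and to all 9 for the slope (genotype plus score). The score used a prior count of 1. SEs were derived from the F statistics. Alternatives were DESeq2 size factors in edgeR, DESeq2 itself (version 1.42.0), log2 FPKM with a pseudocount of 0.1 or 1 in limma (version 3.58.1, mean FPKM of at least 0.5), no filter, at least 10 counts in every library, a replicate block, all 9 libraries in 1 fit, the score as covariate, the score without genotype, a score from 12 pachytene spermatocyte genes, each testis left out, and library totals without TMM, the last added after seeing the data. The code was tested on simulated data. P-values measure the spread between these samples.

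Members and lists were chosen with earlier results of these data known. All members were named, with the 2 largest and 2 smallest slopes of each list and the 2 genes most alike to each member. Cyp11a1, Cyp17a1, Crisp1, Dmrtb1, Tnp1, Tnp2, Odf1, Gapdhs, Akap4, Paip1, Papolb, Cpeb4, Ythdf1, Fxr1 and Sycp3 were named after their values were seen. Promoter windows and positions are from RefSeq (GRCm38.p6) and GENCODE (GRCm38), which holds 22232 of the gene identifiers.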

Additional observations from a re-analysis of the deposited data

How the results depend on the processing

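All 10 member slopes kept their direction under every alternative. Leaving out 1 testis moved the number of members called for the slope from 7 to between 3 (without Piwil4 WT/R264W replicate 3) and 8, and the number of genes from 4594 to between 2575 and 6368, where the fit has fewer samples. Members called numbered 6 to 9 under the other alternatives, where calls were lost for Ybx2, Pabpc1, Ddx25 or Cpeb1 and gained for Boll, Meioc or Ybx1. All genes called there ran from 3850 of 15771 (replicate block) to 6110 of 15771 (library totals without TMM). With the score without genotype, 9 members were called beside 5332 of 15771 genes. DESeq2 called 2 genes, Fras1 and Lepr, in Piwil4 R264W/R264W against wild-type testes, and 6 against Piwil4 WT/R264W testes (5 higher and 1 lower); the cause was not tested. No member was called between genotypes under any alternative, and log2 fold changes near 0 changed sign.

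With the score as covariate, Piwil4 R264W/R264W against wild-type testes gave 0.068 for Dazl, 0.0044 for Boll, -0.024 for Ybx2, -0.059 for Ybx3, -0.040 for Ddx25, 0.018 for Cpeb1 and 0.0051 for Meioc, and Meioc gave 0.0058 against Piwil4 WT/R264W testes and -0.00068 for Piwil4 WT/R264W against wild-type testes. Limma (+ 0.1, + 1) gave -0.0059 and -0.0059 for Boll in homozygous against heterozygous testes and, for Piwil4 WT/R264W against wild-type testes, 0.0011 and 0.0011 for Ybx1 and 0.017 and 0.016 for Ythdc2. In the last comparison Ythdc2 was 0.0011 without a filter, 0.0010 with all 9 libraries in 1 fit and 0.033 with library totals, where Ybx1 was 0.0067. For slopes, Mettl3 was 0.0013 with DESeq2 size factors (0.0013 in DESeq2) and Cpeb4 -0.0040 with library totals.

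With 1 testis left out, sign changes occurred within these ranges. Piwil4 R264W/R264W against wild-type testes ran from -0.20 to 0.13 for Dazl, -0.066 to 0.029 for Boll, -0.0025 to 0.16 for Ybx1, -0.11 to 0.14 for Ybx2, -0.11 to 0.14 for Ybx3, -0.020 to 0.11 for Pabpc1, -0.086 to 0.087 for Ddx25, -0.15 to 0.075 for Cpeb1 and -0.092 to 0.062 for Meioc. Against Piwil4 WT/R264W testes they were -0.016 to 0.093 for Boll, -0.12 to 0.088 for Meioc and -0.014 to 0.25 for Ybx2. Piwil4 WT/R264W against wild-type testes ran from -0.011 to 0.32 for Dazl, -0.12 to 0.062 for Ybx1, -0.20 to 0.0051 for Ybx2, -0.12 to 0.12 for Ythdc2 and -0.12 to 0.092 for Meioc. Slopes ran from -0.37 to 0.095 for Pabpc4l, -0.055 to 0.025 for Mettl3 and -0.016 to 0.062 for Cpeb4.

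The replicate numbers did not pair the samples throughout: correlations of same-numbered deviations ran from -0.734 to 0.784. In both comparisons with Piwil4 R264W/R264W testes, no testis was most alike to the one of the same number. In Piwil4 WT/R264W against wild-type testes, replicates 1 and 3 were (0.713 and 0.784) and replicate 2 was not (-0.0734). With a replicate block, 3850 genes and 6 members had a called slope, and no genotype comparison gained a call.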
